A study of Rattus norvegicus with 24 samples.

Results

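Mammary carcinomas of rats irradiated before puberty were set against normal mammary glands for methylation of autosomal CpG islands. The 7 carcinomas (IR-3W) and 3 glands (NMG) are 10 of the 24 samples of the series, and were taken by their labelled groups. Probes on chromosomes 1 to 20 were used, 89403 of 93024. All rats were female Sprague-Dawley. The IR-3W rats received 2 Gy of 137Cs gamma rays at 0.6 Gy per min at 3 weeks of age, and the rats that gave the glands were not irradiated. Later comparisons also use 7 IR-7W carcinomas, of rats given the same dose at the same rate at 7 weeks of age. They also use 7 spontaneous carcinomas of rats that were not irradiated. All rats were moved after 9 weeks of age to an AIN-76A diet with 23.5% corn oil. IR-3W tumors 6 and 7 came from 1 rat, so the 7 tumors stand for fewer than 7 animals. Whole tissue was used, so a change in the methylation of a cell type and a change in the share of that cell type cannot be told apart.

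CpG islands are stretches of DNA rich in CpG dinucleotides that often lie at gene promoters. In normal tissue most are unmethylated, and methylation of an island at a promoter is associated with a silent gene. Tumors commonly gain methylation at some islands that are unmethylated in the normal tissue and lose it elsewhere in the genome. On each array the Cy5 channel held DNA captured by a methyl-CpG binding domain protein (MBD), and the Cy3 channel held DNA of the same sample without enrichment. A higher log2 ratio of Cy5 over Cy3 therefore means more methylation. Each array was centered on its own median, so a shift common to all probes is not seen. Probes at most 1000 bp apart were joined into runs, which were not matched to island coordinates. At least 3 probes (median 6) were held by 12724 runs. A difference below is always the IR-3W mean minus the gland mean, in log2 units. The probes were not paired with genes here, so regions are given by their position on the rn4 assembly, and the labelled tissues could not be checked against marker genes.

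The array of IR-3W tumor 1 stood apart. Its 95th percentile of the autosomal ratios was 5.77, against 3.34 to 3.72 on the other 6 tumor arrays and 3.57, 2.90 and 3.78 on the glands. Each array showed a large mode of unmethylated probes and a smaller mode of methylated probes, fitted as a mixture of 2 normal distributions. The distance between the modes was 5.06 log2 units in IR-3W tumor 1 and 2.89 to 3.60 on the other 9 arrays. The main counts and the named runs are given with and without that tumor. Some results are also given on a scale where the unmethylated mode of each array is 0 and its methylated mode is 1, called the position below. The methylated mode held 11.7% to 15.8% of the autosomal probes of a gland and 15.1% to 18.9% of those of a tumor. In the Cy5 channel 86.3% to 95.5% of probes were well above background in the glands and 77.3% to 93.9% in the tumors. The 3 glands were scanned on 1 day and the tumors on 4 other days, so tissue and scan day cannot be told apart in these 10 arrays.

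**Figure D1:**
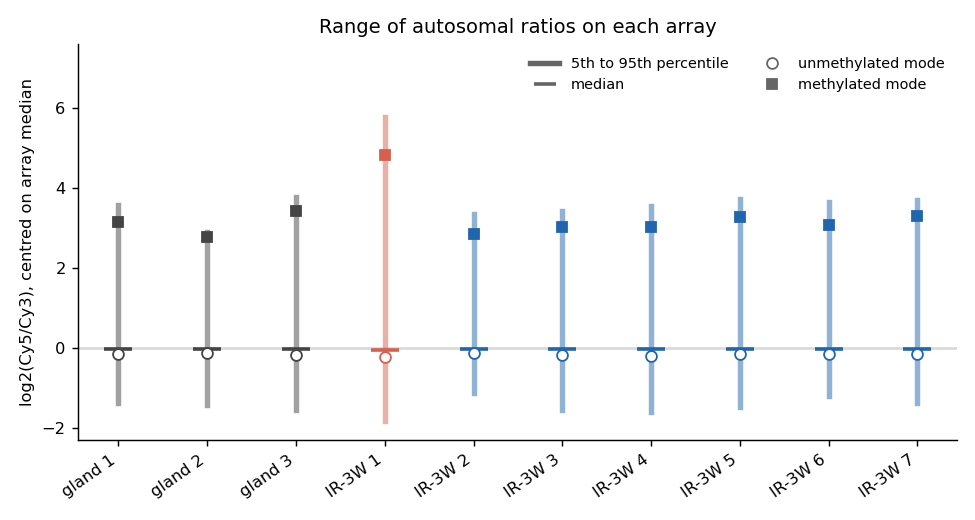
Range of the median-centered log2(Cy5/Cy3) of autosomal probes on the 3 gland arrays and the 7 IR-3W arrays, with bars from the 5th to the 95th percentile, the median as a dash and the fitted modes as a circle and a square. The bar of IR-3W tumor 1 reaches 5.77, above all others, while the unmethylated modes of the 10 arrays lie close together.

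Methylation at CpG islands differed in both directions between the prepubertal irradiation carcinomas and the glands. In all 344 of 12724 runs (2.7%) passed an adjusted p of 0.05 (limma, adjusted over all runs by the method of Benjamini and Hochberg), 129 higher in the tumors (1.01%) and 215 lower (1.69%). The runs that rose did so by a median of 0.82 and up to 2.30, and those that fell did so by a median of -0.58 and down to -1.11, beside a median of 0.08 over all runs. Among the called runs 48 rose by more than 1 log2 unit and 3 fell by more than 1. In each of the 344 the values of the 7 tumors did not overlap with those of the 3 glands, which was true of 14.9% of all runs (5.76% with the tumors higher and 9.19% with the tumors lower). At the level of probes, 6161 of 89403 differed (6.89%), 2240 higher (2.51%) and 3921 lower (4.39%). Of these 2663 differed by more than 1 log2 unit (2.98%), 1351 upward (1.51%) and 1312 downward (1.47%).

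These calls lay just under the threshold, since the smallest adjusted p of any run was 0.0424. Without IR-3W tumor 1 there were 783 called runs (6.15%), 402 higher and 381 lower, and they held all 344. At the level of probes there were 8543 without it, 3510 higher and 5033 lower (41.1% higher), of which 3495 differed by more than 1 log2 unit. There were 0 called runs without gland 1, 2 or 3 or without IR-3W tumor 2, 3, 4 or 5 (1899 to 3155 at an unadjusted p under 0.05), 519 without tumor 6 and 776 without tumor 7. With scan day as a random block there were 0 as well (limma, 2013 at an unadjusted p under 0.05). The count was also 0 with normexp background correction, with centering within probe length and with the replicate number as a block. Settings that kept any calls gave 213 to 2282 runs. The share of called probes that were higher in tumors was 36.4%, but it depended on the scaling. It was 97.0% with a rebuilt LogOdds, where the median difference over all probes was 1.30 LogOdds units. That score came from the 2 modes fitted to each array. It did not compare probes of the same melting temperature, as the paper's score did, so it is not the paper's LogOdds. The share was 48.4% with centering within probe length and 2.39% with normexp background correction. It was 30.5% after quantile normalization, which lowered the median difference of the log2 ratio from 0.14 to -0.01.

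Runs that rose and runs that fell lay at different levels. Of the 129 that rose, 115 had a mean position under 0.25 in the glands, near the unmethylated mode. Their median position was -0.07 in the glands and 0.19 in the tumors, and 25 had a tumor mean past the midpoint of 0.5, as had 2048 of all 12724 runs. Of the 215 that fell, 184 also lay under 0.25 in the glands and 0 lay above 0.75. Their median position went from 0.14 in the glands to -0.04 in the tumors. The runs that fell thus started a little above the unmethylated mode and ended at it. The position in the glands shares its arrays with the difference, so these levels are a description. Of all 12724 runs 10259 lay under 0.25 and 1418 above 0.75 in the glands.

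**Figure D2:**
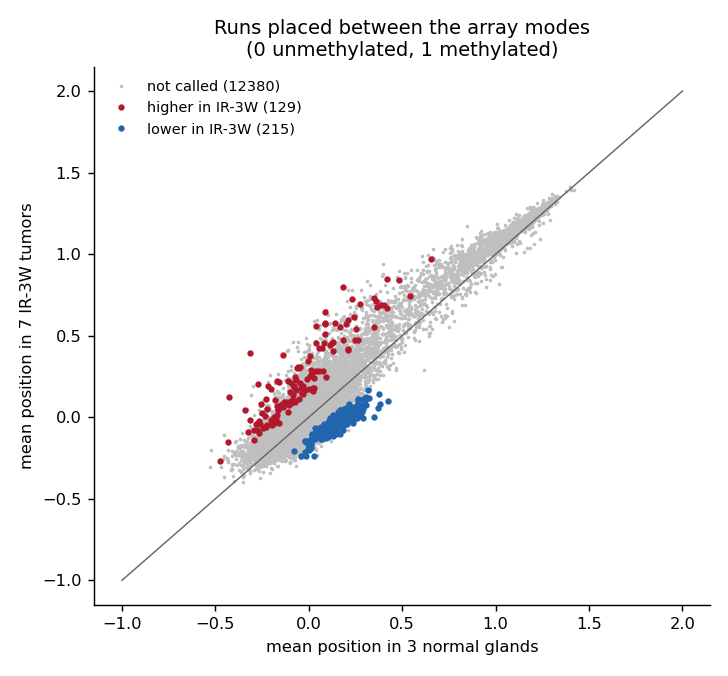
Mean position of each of the 12724 runs in the 3 glands (x axis) and in the 7 IR-3W tumors (y axis), where 0 is the unmethylated and 1 the methylated mode of an array, with the diagonal as a line. The 129 runs that rose spread upward from the unmethylated mode, and the 215 that fell lie in a band just below the diagonal, with 0 of them above 0.75 in the glands.

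The runs with the largest change were ranked without IR-3W tumor 1 among 312 runs that were called with and without it, did not overlap between groups and were above background (108 higher and 204 lower). The 10 largest increases are called G1 to G10 and the 10 largest decreases L1 to L10, in the order of the values without that tumor. Those values were 1.97, 1.84, 1.81, 1.81, 1.73, 1.64, 1.55, 1.43, 1.43 and 1.42 for G1 to G10. For L1 to L10 they were -1.15, -1.07, -1.03, -0.996, -0.98, -0.92, -0.91, -0.89, -0.88 and -0.86. Differences given below are over all 7 tumors unless stated. With normexp background correction G1 to G10 differed by 0.461 to 0.940 and L1 to L10 by -1.08 to -0.375, and none of the 20 passed (limma adjusted p = 0.0739 to 0.414). That correction added an offset of 50 to each signal, beside a median Cy5 intensity of 71.0 to 143 per array before background subtraction. The part of the offset in these values was not tested. G1 (chr20:29547177-29547684, 4 probes) was at 0.75, -0.15 and 0.81 in the glands, and at 1.82 to 3.53 with a median of 2.28 in the tumors. It rose by 2.13 (SE 0.43, limma adjusted p = 0.0428). All 4 probes of G1 were higher in each tumor than in each gland. On the log2 scale tumors 1, 2 and 6 were above 3 and the other 4 lay between 1.82 and 2.28. By position the stretched array of tumor 1 was at 0.74, near the 0.63 to 0.71 of those 4. Tumors 2 and 6 were at 1.13 and 1.10. On the scale of the modes G1 went from a mean position of 0.18 to 0.80, so it reached the methylated mode in some tumors.

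G2 (chr4:56283715-56284264, 4 probes) was at 0.15, 0.16 and -0.46 in the glands and at 0.84 to 2.56 in the tumors, with a median of 1.80. It rose by 1.74 (SE 0.36, limma adjusted p = 0.0431). G4 (chr5:146568542-146568977, 3 probes) was at 0.38, 0.28 and -0.31 in the glands and at 1.21 to 2.92 in the tumors, with a median of 1.85. In both the lowest tumor was well above the highest gland, and tumor 6 was among the highest. G7 (chr7:10332579-10333021, 3 probes) was at 0.42, -0.07 and 0.06 in the glands and at 0.96 to 3.02 in the tumors, with its highest value on the stretched array of tumor 1. On the scale of the modes that array was at 0.64 in G7 and tumor 6 was higher, at 0.71.

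G10 (chr1:174116147-174116656, 5 probes) was already intermediate in the glands, at 1.60, 0.77 and 1.29, and was at 1.84 to 3.37 in the tumors. Its mean position went from 0.42 to 0.85. G5 (chr15:103113190-103113606, 4 probes) was the opposite case, at -0.91, -2.16 and -1.42 in the glands and at -0.31 to 0.92 in the tumors. Its mean position went from -0.43 to 0.13, so its rise of 1.75 on the log2 scale ended within the unmethylated mode, and its signals were above background in only 50.0% of its probes on the dimmest array. G6 (chr2:191331144-191331690) rose by 1.61 and G9 (chr15:107623975-107624461) by 1.43.

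**Figure D3:**
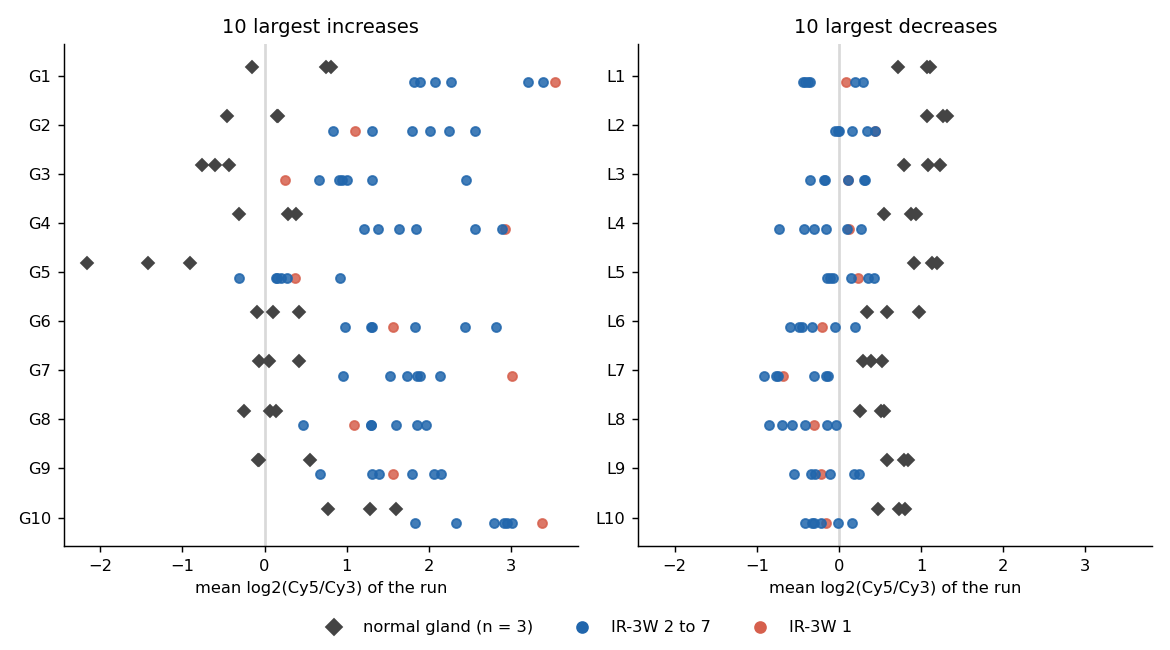
Mean log2(Cy5/Cy3) of the 10 runs with the largest increase (G1 to G10, left) and the 10 with the largest decrease (L1 to L10, right), 1 point per array, with glands as diamonds and tumors as circles. By the choice of these runs all tumors lie on 1 side of the glands in each. The tumors range from 1.82 to 3.53 in G1 and from -0.44 to 0.29 in L1.

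G3 (chr5:120330924-120331903, 12 probes) was at -0.43, -0.76 and -0.61 in the glands and at 0.25 to 2.45 in the tumors, with a median of 0.94. It rose by 1.67 (SE 0.37, limma adjusted p = 0.0475). The tumors were above all glands at 11 of its 12 probes, and at the other 1 in 4 of 7 tumors. A further 3 runs within 20 kb of G3 had differences of 1.18, 0.69 and 1.69 (limma adjusted p = 0.0731, 0.111 and 0.0516), which did not pass the threshold. G8 (chr4:80525137-80526583, 11 probes) was at 0.14, -0.25 and 0.06 in the glands and at 0.46 to 1.97 in the tumors, and rose by 1.38 (SE 0.29, limma adjusted p = 0.0431). It lay in a row of 8 runs, and the 7 others within 20 kb differed by 0.37 to 1.47. One of these rose past the threshold, chr4:80532639-80535406 with 17 probes, by 1.30 (limma adjusted p = 0.0451). Over all named increases 17 runs lay within 20 kb, around 6 of the 10, and 7 of the 17 were those of G8. Of these 17, 16 had a positive difference, as had 58.1% of all runs. Around the decreases there were 2 such runs, with differences of -0.15 and 0.38. Of all 12724 runs 40.2% had another tested run within 20 kb, and this was so for 77 of the 129 called higher and 33 of the 215 called lower. Neighbouring runs share their arrays and are not independent, so these counts are a description.

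L1 (chr8:75152168-75152880, 4 probes) was at 0.72, 1.11 and 1.07 in the glands and at -0.44 to 0.29 in the tumors, with a median of -0.35. It fell by 1.11 (SE 0.20, limma adjusted p = 0.0424). Tumors 1, 6 and 7 lay slightly above 0 and the other 4 below it. L2 (chr15:46605655-46606089, 3 probes) was at 1.07, 1.32 and 1.27 in the glands and at -0.04 to 0.44 in the tumors, and fell by 1.03. L3 (chr2:35031343-35032079, 6 probes) was at 0.79, 1.23 and 1.09 in the glands and at -0.35 to 0.32 in the tumors, and fell by 1.01. The groups were separate in each of these runs.

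L5 (chr4:123730317-123730788, 3 probes) was at 0.91, 1.20 and 1.14 in the glands and fell by 0.96. L6 (chr1:118410239-118412461, 8 probes), the longest at 2223 bp, was at 0.34, 0.58 and 0.98 in the glands and at -0.60 to 0.19 in the tumors, and fell by 0.91. The tumors were below all glands at 5 of its 8 probes and at 3 of the 4 probes of L1. The other named decreases were L4 (chr2:29450769-29451550), L7 (chr1:154348441-154349363), L8 (chr20:11009407-11009830), L9 (chr10:63017318-63018093) and L10 (chr9:57052969-57053448), which fell by 0.95, 0.93, 0.87, 0.89 and 0.85. The mean position of the 10 decreases was 0.17 to 0.42 in the glands and -0.10 to 0.10 in the tumors. The highest tumor was number 7 in 6 of the 10 and number 6 in 3, which are the tumors of the same rat.

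**Figure D4:**
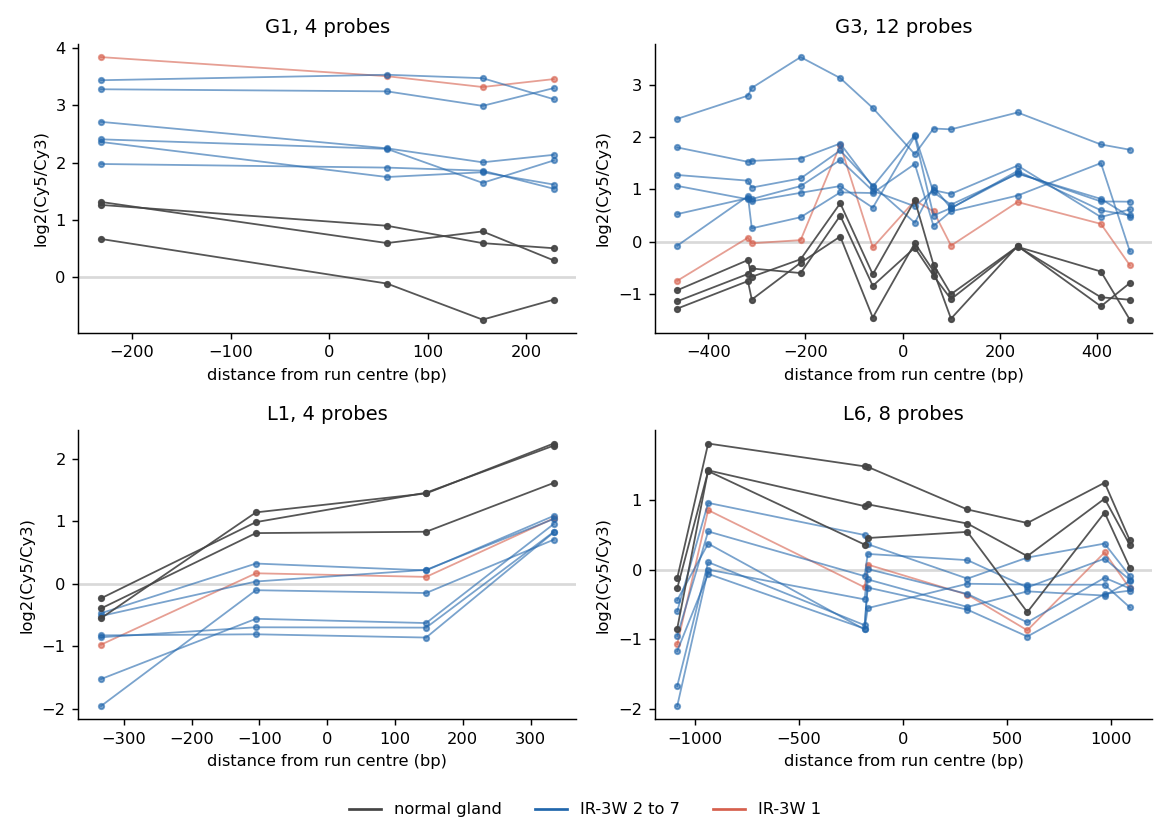
Log2(Cy5/Cy3) of each probe against its distance from the run centre in bp, 1 line per array, for G1, G3, L1 and L6, with glands in dark grey, IR-3W tumor 1 in red and the other tumors in blue. The tumor lines lie above the glands at all 4 probes of G1 and at 11 of the 12 of G3, and below them at 3 of the 4 probes of L1 and 5 of the 8 of L6.

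The change lay in the enriched channel. Over G1 to G10 the Cy5 signal was higher in tumors by 1.31 to 2.16 log2 units and the Cy3 signal differed by -0.09 to 0.21. Over L1 to L10 the Cy5 signal differed by -1.16 to -0.84 and the Cy3 signal by -0.09 to 0.07. Spontaneous tumor 3 was the only tumor scanned on the day of the glands, and shared a slide with gland 2. It was above all 3 glands in 9 of the 10 increases and below all 3 in 10 of the 10 decreases, with differences from the gland mean of 0.35 to 2.02 and -1.02 to -0.50. Over all runs it lay above all 3 glands in 34.0% and below all 3 in 30.2%. The 20 runs were chosen for being apart from the same 3 glands, so nothing is read from its count.

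Single probes were also ranked without IR-3W tumor 1, and the 2 with the largest change in each direction are given. Over all 7 tumors some others rose by more, among them probes of G1 by 2.32 and 2.23. The probe at chr5:120337768-120337826, in a run 5521 bp from G3 with the run at chr5:120333662-120335908 between them, was at -0.61, -0.60 and -0.61 in the glands and at 0.18 to 2.78 in the tumors, with tumors 1 and 7 lowest at 0.18 and 0.34. It rose by 2.22 (limma adjusted p = 0.0375). A probe of G8 (chr4:80526407-80526453) was at 0.46, -0.44 and 0.13 in the glands and at 1.03 to 2.83 in the tumors, and rose by 2.20 (limma adjusted p = 0.0334). The probe at chr20:46669364-46669408 was at 2.05, 2.54 and 2.70 in the glands and at 0.14 to 1.5 in the tumors, and fell by 1.77 (limma adjusted p = 0.0334). The probe at chr18:73179916-73179960 fell by 1.68, from 1.36, 1.91 and 2.04 in the glands to -0.64 to 0.77 in the tumors. Without IR-3W tumor 1 these 4 differences were 2.46, 2.26, -1.81 and -1.74, and with normexp background correction they were 0.913, 1.23, -1.62 and -1.70, where the increases did not pass the threshold (limma adjusted p = 0.121 and 0.124). The runs of 8 and 6 probes that hold these last probes differed by -0.25 and -0.00 (limma adjusted p = 0.289 and 0.977), so the decreases there were not shared by the whole run.

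The carcinomas varied in how many runs that were unmethylated in the glands lay past the midpoint. With 1 array per tumor, variation between tumors and between arrays cannot be told apart. Of the 9809 runs with a position under 0.25 in all 3 glands, 64, 212, 51, 83, 42, 123 and 11 lay past the midpoint of 0.5 in IR-3W tumors 1 to 7. The median over these tumors, 64, was 14 with limits of 0.2 and 0.6, and 37 with fixed limits of 0.5 and 1.5 on the log2 ratio. As background, the limits were set with the other glands alone and each gland was read in turn, which gave 3, 0 and 2 runs in glands 1, 2 and 3 of 10094, 9871 and 9918. The tumors had 19 to 270, 11 to 212 and 15 to 233 runs on these 3 bases, so each tumor was above each gland. With 1 gland against 7 tumors this was not tested. In all 347 runs crossed in at least 1 tumor, 204 of them in 1 tumor only (58.8%), 86 in 2, 32 in 3, 15 in 4, 6 in 5, 4 in 6 and 0 in all 7. Tumor 2 alone held 99 of the 204.

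**Figure D5:**
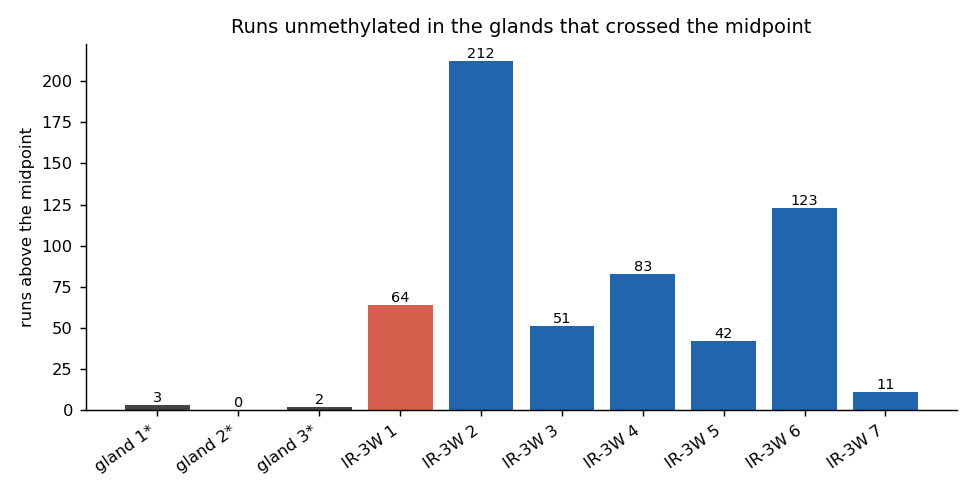
Number of runs that were unmethylated in the glands (position under 0.25) and lay past the midpoint of 0.5, for the 7 IR-3W tumors against all 3 glands and for each gland, marked with an asterisk, against the other glands. The tumors range from 11 to 212 and the glands from 0 to 3.

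The tumors of the same rat were not alike in this count, with 123 runs in tumor 6 and 11 in tumor 7. They shared 4, which is 3.25% of the first and 36.4% of the second. Tumors 2 and 6, from different rats, shared 89, or 42.0% and 72.4%. The ratios of tumors 6 and 7 correlated with r = 0.875 over autosomal probes, within the range of 0.847 to 0.950 among the 7 tumors. Falls from the methylated mode were rare. Of 1232 runs above 0.75 in all glands, 1, 11, 0, 0, 1, 0 and 2 lay under the midpoint in tumors 1 to 7. With the limits set by the other glands, gland 1 had 0 such runs and the tumors 0 to 11, gland 2 had 16 and the tumors 1 to 27, and gland 3 had 0 and the tumors 0 to 12.

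Changes by starting level were then measured with 1 gland to group the probes and the other 2 to measure the change. In the 50% of probes with the lowest ratio the tumors were higher by 0.09, 0.19 and 0.13 when glands 1, 2 and 3 set the groups (two-sided exact permutation p = 0.389, 0.0556 and 0.167). In the top 5% the tumors were higher by 0.47, 0.13 and 0.61 (exact permutation p = 0.556, 0.667 and 0.278). Without IR-3W tumor 1 these were 0.13, -0.21 and 0.27. In the 15 groups 0 passed the threshold (smallest adjusted exact permutation p = 0.705), and a design of 2 glands and 7 tumors cannot give a p below 0.0556. The distance from the median to the 95th percentile was 3.45 ± 0.47 (SD, n = 3) in the glands and 3.92 ± 0.85 (SD, n = 7) in the tumors (two-sided exact permutation p = 0.367), and 3.60 ± 0.16 in the tumors without IR-3W tumor 1.

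Probe length moved with the calls. Among 45 bp probes 2.21% were called higher and 6.15% lower in tumors, and among 60 bp probes 2.95% and 0.0358%. The median difference was 0.07 in the former and 0.57 in the latter. The mean probe length was a median of 48.2 bp in the runs that rose, 45.9 bp in those that fell and 47.0 bp in all. With centering within probe length the number of called runs was 0 (limma, 3247 at an unadjusted p under 0.05), while G1 to G10 differed by 1.34 to 2.15 and L1 to L10 by -1.06 to -0.778 (limma adjusted p = 0.0513 to 0.0633). The part of probe length in the result was not tested further.

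The levels in the IR-3W carcinomas were then set against those of the other carcinomas. Between IR-3W and IR-7W, the rats irradiated with the same dose at 7 weeks, 0 of 12724 runs differed (limma, 0.0%, smallest adjusted p = 0.0893, 1043 at an unadjusted p under 0.05). IR-7W tumors 1 and 2 also came from 1 rat, so each of these groups stands for 6 rats, and the tests treat tumors as separate samples. The count was 0 with the tumors of 1 rat averaged, 128 with the rebuilt LogOdds, 17 after quantile normalization, 6 without IR-3W tumor 1, 3 without IR-3W tumor 4 and 8 without IR-7W tumor 7. At G1 the IR-3W mean was 2.60, the IR-7W mean 2.66 and the mean of the spontaneous tumors 2.26, and at L1 they were -0.14, -0.10 and -0.38. The differences between IR-3W and IR-7W were -0.49 to 0.44 over G1 to G10 and -0.12 to 0.12 over L1 to L10. Between IR-3W and the spontaneous tumors they were -0.45 to 0.53 and 0.03 to 0.25. The smallest adjusted p over these 20 runs was 0.683 against IR-7W and 0.412 against the spontaneous tumors (limma).

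One run of 12724 (0.00786%) differed between IR-3W and the spontaneous tumors, with 1350 at an unadjusted p under 0.05. It lay at chr12:38155524-38155995 with 8 probes. It was at 2.70 to 3.25 with a median of 3.03 in IR-3W, at 1.09 to 2.13 with a median of 1.77 in the spontaneous tumors, and at 2.86, 2.10 and 3.11 in the glands. IR-3W was higher by 1.28 (SE 0.14, limma adjusted p = 0.00405), and the tumor groups did not overlap. Without IR-3W tumor 1 the difference was 1.24 (SE 0.15, limma adjusted p = 0.0113), and with the tumors of 1 rat averaged it was 1.29 (SE 0.14, limma adjusted p = 0.00696). It did not differ from the glands past the threshold (difference 0.34, limma adjusted p = 0.322). The IR-7W mean was 1.89. The call was lost with arrays scaled by their median absolute deviation, after quantile normalization, with the rebuilt LogOdds, with slide as a fixed block and with the replicate block (limma adjusted p = 0.135, 0.111, 0.799, 0.585 and 0.147). It passed in the other fits run, among them those without each tumor in turn.

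The number of runs past the midpoint was also set against the other carcinomas, in a measure defined after the values had been seen. The IR-3W tumors had a mean of 83.7 ± 66.4 runs (SD), the IR-7W tumors 243 ± 184 and the spontaneous tumors 243 ± 182, each with n = 7 (two-sided exact permutation p = 0.0478 and 0.0338, adjusted 0.0478 for both). With the counts of tumors of 1 rat averaged, the IR-3W mean was 86.5, against 226 in IR-7W (6 rats against 6, exact permutation p = 0.0736) and 243 in the spontaneous tumors (6 against 7, exact permutation p = 0.0478). Both adjusted p were then 0.0736, and neither passed the threshold. With limits of 0.2 and 0.6 on the position the means were 31.4, 98.9 and 96.4 (exact permutation p = 0.0927 and 0.128). With fixed limits of 0.5 and 1.5 on the log2 ratio they were 62.0, 112 and 93.7 (exact permutation p = 0.149 and 0.423). None of these passed the threshold. Of the 14 comparisons with 1 tumor left out, 10 against IR-7W and 7 against the spontaneous tumors had an unadjusted p that did not pass it either, among them those without IR-3W tumor 1. The groups overlapped, with 67 to 530 runs in IR-7W and 74 to 583 in the spontaneous tumors.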

How the data were processed

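DNA methylation was measured in 7 IR-3W tumors and 3 normal mammary glands, 1 dual-channel array per sample. The authors deposited intensity values from Agilent Feature Extraction 10.7.3.1 that were already background-subtracted, detrended and linearly dye-normalized, with the log10 ratio of the channels beside them. The log2 ratios of the deposited series matrix, used as an alternative, differed from the scanner ratios by under 0.001 for at least 97.9% of an array's probes. The log2 ratio of processed signals was centered per array by its median, leaving out 1 to 15 outlier spots. Modes were fitted by expectation maximization. Probes and run means were tested on the compared arrays by limma 3.58.1 (R 4.3.3, Benjamini-Hochberg), and array means by exact permutation, two-sided, in Python 3.11.15. The limma fits were checked on simulated ratios. The number of arrays limits the precision, and p-values measure the spread between samples, of which tumors 6 and 7 share a rat.

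Members and lists were chosen with earlier results of these data known. Named were the 10 runs per direction with the largest difference without IR-3W tumor 1, among runs called with and without it whose groups did not overlap and whose signals were above background in at least 50% of their probes on each array, and the 2 probes per direction under the same conditions. Gene lists were planned but not used, since no rn4 annotation was used here. Alternatives changed the normalization, filter, test or block, or dropped 1 array. The positions between modes and the counts past the midpoint were added after the data had been seen.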

Additional observations from a re-analysis of the deposited data

Results flagged for a closer look

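IR-3W tumor 1 stood apart from the other 6 tumors by Dixon's test in 11 of 44 measures, where chance gives about 1 in 20. Its distance from the median to the 95th percentile was 5.818, against 3.36 to 3.76 in the others, and the distance between its modes was 5.057. In the groups of probes set by glands 1, 2 and 3 its mean was 2.123, 1.593 and 1.912 between the 75th and 90th percentiles, 5.197, 5.115 and 5.199 between the 90th and 95th, and 6.208, 6.192 and 6.224 in the top 5%. These groups share their probes and are 1 pattern. None of the named runs was flagged. The run at chr12:38155524-38155995 was flagged because IR-3W tumors were higher than spontaneous tumors there by 1.28 in the test of that difference.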

How the results depend on the processing

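Counts below are of probes, of probes past 1 log2 unit and of runs, against 6161, 2663 and 344. They were 12365, 12365 and 2282 with the rebuilt LogOdds, where the limit of the second count was 1 LogOdds unit and is not comparable. They were 12540, 4619 and 1839 after quantile normalization, 18497, 5047 and 2074 with array weights, and 14616, 4461 and 2005 with all 24 arrays in 1 fit. Normexp background correction gave 1551, 361 and 0. Scan day as a random block gave 0, 0 and 0, as a fixed block over all 24 arrays 1, 1 and 0, and the replicate block 0, 0 and 0. Counts of probes and runs were 9475 and 1030 with median absolute deviation scaling, 9468 and 1098 with trend and robust limma, 3844 and 213 with slide as a random block, and 11103 and 1205 on the scale of the modes, which was chosen after seeing the data. Runs numbered 0 with centering within probe length, 1596 with only probes above background, 838 with the tumors of 1 rat averaged and 521 with medians over a run. Without 1 array in turn, probes ranged from 0 to 8543, large differences from 0 to 3863 and runs from 0 to 783. The loss of calls when an array is left out includes the loss of that sample. The causes of the other changes were not tested.

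The share of called probes that were higher, 36.4%, was 97.0% with the rebuilt LogOdds, 48.4% with centering within probe length, 45.8% with array weights, 42.2% with all 24 arrays, 41.1% on the scale of the modes, 39.9% with the tumors of 1 rat averaged, 34.6% with only probes above background, 34.4% with slide as a random block, 30.5% after quantile normalization, 29.4% with the methods' t-test, 2.39% with normexp and 0% of the 1 probe called with scan day fixed. Without 1 array it was 33.2% to 42.7%. The replicate numbers of glands and tumors share only a number: the deviations of same-numbered arrays correlated at 0.22, 0.39 and -0.06, and 1 gland of 3 correlated best with its own number.

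The 20 named runs and 4 named probes kept their direction under each alternative that could be computed for them. They were chosen for groups that did not overlap, so leaving out 1 array could not have changed their direction. G5, G7, L4 and L7 could not be tested with only probes above background on all arrays, and the named probes have no median over a run. All 24 lost their calls without gland 1, 2 or 3, without tumor 2, 3, 4 or 5, and with the replicate or scan day blocks. With scan day fixed over all 24 arrays, spontaneous tumor 3 was the only tumor on the day of the glands. The differences from the glands in that fit therefore rest on 1 tumor array. There the increases were 0.80 to 2.25 and the decreases -0.94 to -0.47. With normexp they were 0.461 to 0.940 and -1.08 to -0.375. Without 1 array in turn they were 1.27 to 2.30 and -1.23 to -0.74.

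Runs that differed between IR-3W and IR-7W numbered 128 with the rebuilt LogOdds, 17 after quantile normalization, 1 with median absolute deviation scaling and 0 to 8 without 1 array, reaching 6 without IR-3W tumor 1, 3 without IR-3W tumor 4 and 8 without IR-7W tumor 7. Against spontaneous tumors they numbered 42 after quantile normalization, 8 with scan day fixed, 2 with the tumors of 1 rat averaged, 0 with median absolute deviation scaling, slide fixed or the replicate block, and 1 to 2 without 1 array, with 2 without spontaneous tumor 3 or IR-3W tumor 7. The median number of runs past the midpoint, 64, was 14 with limits of 0.2 and 0.6, 37 with fixed log2 limits and 57.5 to 106 without 1 array, the highest without gland 1. The IR-3W mean minus that of IR-7W was -67.4 and -50.4 with these limits and -188 to -111 without 1 array, and against spontaneous tumors -65.0, -31.7 and -187 to -102. The differences with these limits no longer passed the threshold, nor did 10 and 7 of the 14 fits without 1 array. With the tumors of 1 rat averaged, chosen after seeing the data, the differences were -139 and -156, and neither passed after adjustment over both (exact permutation, adjusted p = 0.0736).

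None of the differences by starting level passed the threshold, and several changed sign. After quantile normalization the 75 to 90% group was at -0.000546 (by gland 1) and -0.243 (gland 3), the 90 to 95% group at -0.0413, -0.0709 and -0.0537, and the top 5% at -0.0456, -0.0505 and -0.0474. Median absolute deviation scaling gave -0.00308 for 75 to 90% by gland 3 and -0.0725 for the top 5% by gland 2. Without 1 array the top 5% ranged from -0.0193 to 0.965 by gland 1 and -0.209 to 0.269 by gland 2, the 90 to 95% group by gland 2 from -0.111 to 0.269 and the 75 to 90% group by gland 3 from -0.0281 to 0.361. The upper spread was -0.278 with normexp. The lower spread, -0.00, was 0.0403 with normexp, 0.0532 with centering within probe length, 0.0223 with the tumors of 1 rat averaged and -0.0631 to 0.0495 without 1 array. The median Cy5 intensity of an array, 71.0 to 143 scanner units before subtraction of a background of 39.0 to 45.5, limits what low ratios can show.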
